A study of Homo sapiens with 4 samples.

Results

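The genes described here are 9 genes of antigen presentation by major histocompatibility complex (MHC) class I: the heavy chain genes HLA-B, HLA-C, HLA-E and HLA-F, the light chain gene B2M, the peptide transporter genes TAP1 and TAP2, the transactivator gene NLRC5 and the peptide-trimming gene ERAP1. They were taken by symbol from the 60682 genes of a count table, and all 9 were found. Other class I heavy chain genes are not reported here. RNA-seq of total RNA compared JJN3 cells transduced with a short hairpin RNA against WNK1 (shWNK1) with JJN3 cells transduced with the hairpin called NS in the labels, which served as the control, with 2 libraries in each group. JJN3 is an established human multiple myeloma line, a cancer of plasma cells, and both groups were grown in the same DMEM and IMDM medium with serum. Library totals were 16973521 and 20164122 counts for shWNK1, against 17491537 and 17392619 counts for NS. WNK1 itself had 325 and 403 counts in shWNK1 cells, against 4911 and 4148 counts in NS cells. The plasma cell genes SDC1, IRF4 and XBP1 were counted at least 1430 times in every library, whereas all 10 T and NK cell markers together had 19 to 26 counts in the shWNK1 libraries and 24 to 27 counts in the NS libraries, and all 8 myeloid markers 8 to 10 counts and 9 to 20 counts. Of 10 stromal and epithelial markers 2 were high enough to test. EPCAM had 2100 and 2589 counts in shWNK1 cells, against 1861 and 2018 counts in NS cells, and was not called, and KRT18 fell, with 136 and 170 counts against 181 and 202 counts. CD38 was lower, with 126 and 155 counts in shWNK1 cells, against 193 and 187 counts in NS cells. Of 9 tested B-cell and plasma cell markers 2 rose and 6 fell, where 18.5% of all genes tested rose and 20.2% fell. The rises were PRDM1 (1.19-fold) and JCHAIN (1.19-fold). The falls were SDC1 (2.50-fold lower), MZB1, CD38, CD79B, IRF4 and XBP1. A part of this shift in the markers in the results on class I genes was not tested.

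MHC class I molecules carry peptides from inside the cell to its surface, where CD8 T cells read them and natural killer cells sense their presence. Proteasomes cut the peptides, the TAP1 and TAP2 heterodimer pumps them into the endoplasmic reticulum (ER), ERAP1 trims them there, and a loading complex of tapasin, calreticulin and PDIA3 helps the heavy chain, paired with B2M, to bind them. NLRC5 acts with RFX and NF-Y factors at class I promoters, and interferon-regulatory factors and NF-κB act at neighbouring elements. Plasma cells and myeloma cells also make large amounts of immunoglobulin in the same ER.

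In shWNK1 cells the chain genes HLA-E, HLA-B and B2M rose, and the peptide supply genes TAP2 and ERAP1 fell. HLA-C, HLA-F, TAP1 and NLRC5 were not called. Of the 9 members, all of which were tested, 3 rose and 2 fell (adjusted p under 0.05 in edgeR's quasi-likelihood test, over 14864 genes). Over all genes tested 18.5% rose and 20.2% fell, 38.8% in either direction, and nothing about these genes as a group is read from their counts. The members' median log2 fold change was -0.0046, against 0.0051 over all genes tested, and their median size of change without sign was 0.30 on the log2 scale in both cases. Both shWNK1 libraries lay above both NS libraries for 4 members and below them for 3, and the groups overlapped for HLA-C and NLRC5. Over all genes tested those shares were 34.7% and 33.7%. The labels do not say whether the libraries of a group are separate cultures, so p-values reflect how far these libraries differ, and that difference may be technical only. Levels are given as CPM, which are counts scaled to the TMM-adjusted library size. Being bulk RNA, the data cannot tell fewer expressing cells from less RNA per cell.

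**Figure D1:**
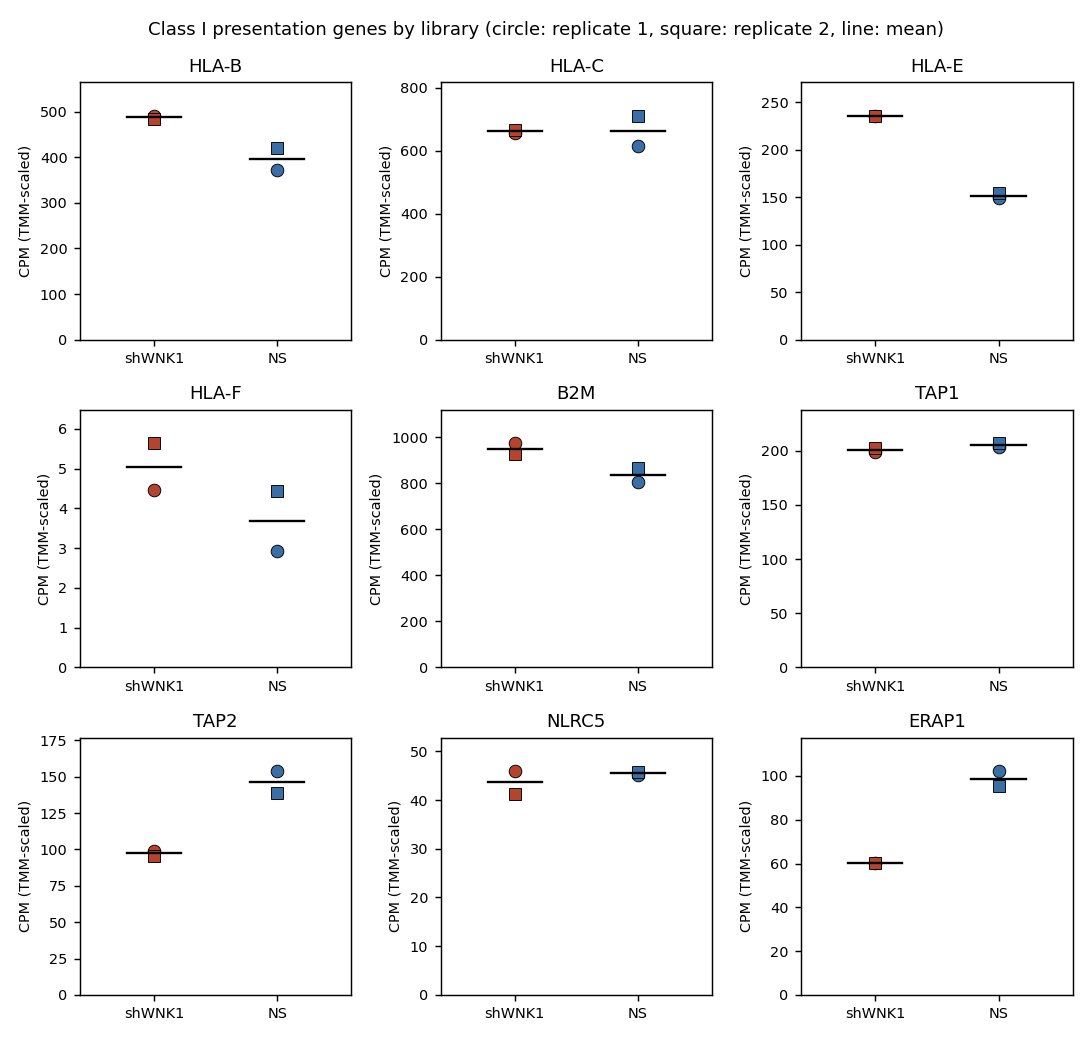
Level of each class I presentation gene in the 2 shWNK1 and 2 NS libraries, in CPM, with each axis starting at 0. HLA-E stood near 236 CPM in both shWNK1 libraries, above 149 and 154 CPM in NS, and ERAP1 near 60.3 CPM, below 102 and 95.4 CPM in NS.

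**Figure D2:**
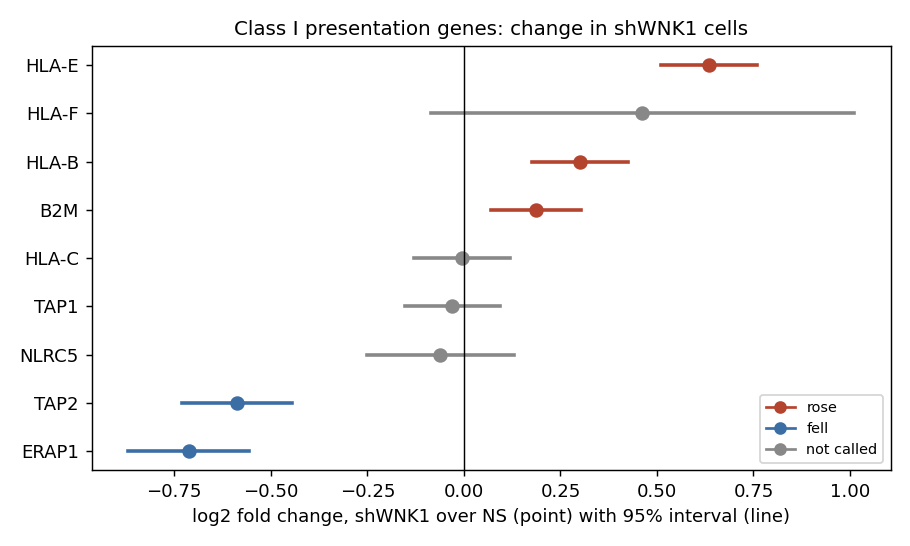
Log2 fold change of the 9 genes, shWNK1 over NS, with 95% intervals from the edgeR fit. HLA-E (0.64) and ERAP1 (-0.71) were at the ends of the order, and the interval of HLA-F was the widest.

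Levels between genes were compared per kilobase of merged exons. HLA-C was highest in both groups, at 263 ± 2.32 CPM per kilobase in shWNK1 and 264 ± 26.6 in NS cells (SD, n = 2 here and below). HLA-B (159.9 ± 1.398) and B2M (156 ± 5.14) followed in shWNK1 cells, and B2M (137 ± 6.78) and HLA-B (129.9 ± 11.5) in NS cells. HLA-B and B2M were the neighbours in that order whose libraries overlapped in either group. Below them came HLA-E with 80.7 ± 0.0162 CPM per kilobase in shWNK1 and 52.0 ± 1.21 in NS cells, TAP1 with 41.8 ± 0.530 and 42.7 ± 0.463, TAP2 with 15.3 ± 0.406 and 22.9 ± 1.65, ERAP1 with 7.59 ± 0.00900 and 12.4 ± 0.611, NLRC5 with 3.52 ± 0.264 and 3.67 ± 0.0272, and HLA-F with 1.17 ± 0.192 and 0.852 ± 0.246. Apart from the order of HLA-B and B2M, the ranks were the same in both groups. Merged exons include exons that a given transcript may lack, which lowers these values for B2M, whose gene model spans 6079 bases.

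HLA-E (ENSG00000204592.9, chromosome 6, 30489509 to 30494194, plus strand, hg38) encodes a nearly invariant heavy chain that shows leader peptides of other class I chains to the NKG2A and NKG2C receptors of natural killer cells. It stood at 236 and 235.8 CPM in the shWNK1 libraries, against 149 and 154 CPM in the NS libraries. The replicates lay close together and the groups far apart. HLA-E was 1.55-fold higher (log2 fold change 0.64, SE 0.061, edgeR adjusted p = 4.9e-10).

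HLA-B (ENSG00000234745.11, chromosome 6, 31269491 to 31357188, minus strand) encodes a highly polymorphic classical heavy chain. It was at 491 and 485 CPM in the shWNK1 libraries, against 371 and 421 CPM in the NS libraries. Both shWNK1 libraries were higher, although the NS libraries differed from each other. The fitted change was 1.23-fold (log2 0.30, SE 0.061, edgeR adjusted p = 1.7e-04). HLA-C (ENSG00000204525.16, chromosome 6, 31268749 to 31272130, minus strand), the classical heavy chain that serves as the main ligand of killer immunoglobulin-like receptors, was at 656 and 665 CPM in the shWNK1 libraries, against 616 and 709.96 CPM in the NS libraries. Both shWNK1 values lay between the NS values. Its fold change was 0.997 with a 95% interval of 0.914 to 1.09 (log2 -0.0046, edgeR adjusted p = 0.964), so a rise of the size seen for HLA-B lies outside that interval.

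HLA-F (ENSG00000204642.14, chromosome 6, 29722775 to 29738528, plus strand), a low-abundance nonclassical heavy chain gene, was at 4.46 and 5.63 CPM in shWNK1, against 2.93 and 4.43 CPM in NS libraries, or 78 and 116 counts against 50 and 75 counts. The highest NS library came close to the lowest shWNK1 library. Opposite-strand genes share 28.0% of the exon bases of HLA-F, and strand was not used in counting. The change was not called (log2 0.46, SE 0.27, 95% interval -0.086 to 1.01, edgeR adjusted p = 0.182; 0.0476 without NS replicate 2). HLA-G, another nonclassical gene, had 14 and 13 counts in shWNK1 cells, against 13 and 23 counts in NS cells (edgeR adjusted p = 0.497).

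Summed over HLA-B, HLA-C, HLA-E and HLA-F, the level was 1388 and 1391 CPM in the shWNK1 libraries, against 1139 and 1289.9 CPM in the NS libraries, a ratio of means of 1.14. Ratios taken within a library need no scaling factor. HLA-E to HLA-C, per kilobase, was 0.308 and 0.304 in shWNK1, against 0.208 and 0.187 in NS libraries. HLA-B to HLA-C was 0.614 and 0.599 in shWNK1, against 0.496 and 0.487 in NS libraries. The groups did not overlap in either ratio, so both genes made up more of the sum relative to HLA-C in shWNK1 cells. No test was run on these ratios. Heavy chain genes resemble one another closely and their alleles in JJN3 can differ from the reference, so reads that fit several of them or that fail the mapping quality minimum are lost. How much of each gene was lost was not tested. Of the exon bases of HLA-B, 18.9% are shared with other annotated genes, among them 35 bases with HLA-C, and the opposite-strand gene that shares most of them had at most 8 counts in any library.

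**Figure D3:**
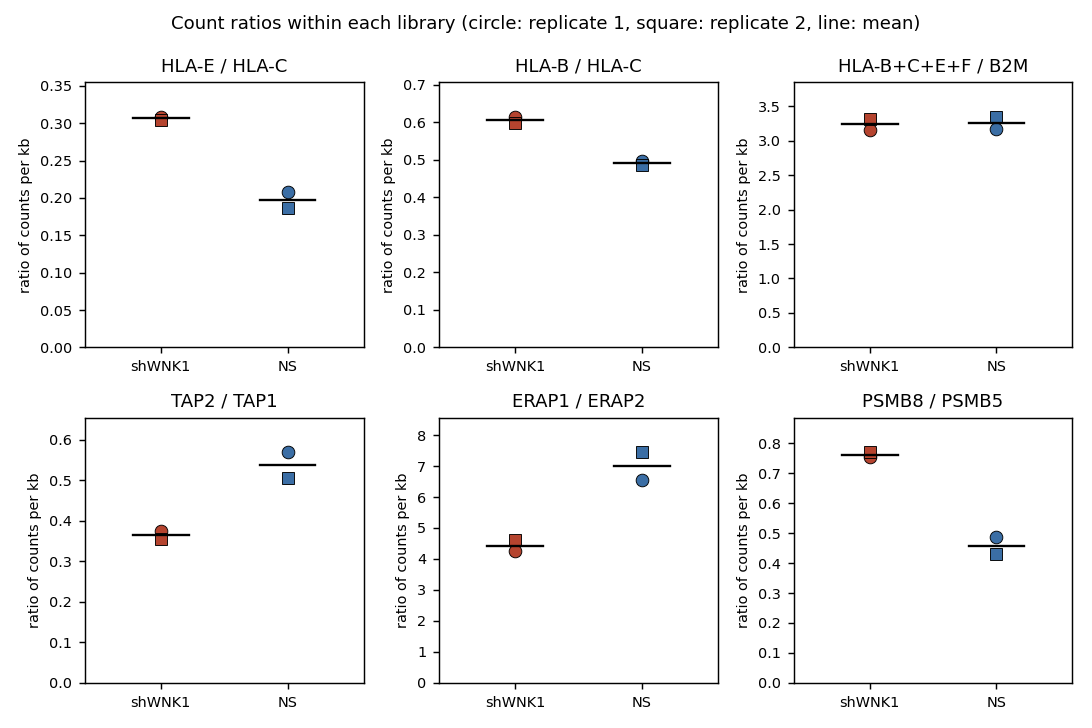
Ratios of counts per kilobase between genes within each library, with shWNK1 left of NS and axes starting at 0. HLA-E to HLA-C, HLA-B to HLA-C and PSMB8 to PSMB5 were higher in both shWNK1 libraries, TAP2 to TAP1 and ERAP1 to ERAP2 were lower, and the heavy chain sum to B2M overlapped between groups.

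The promoters of HLA-B and HLA-C, of which HLA-B rose and HLA-C was not called, are shown from 250 bases before to 50 bases after the RefSeq start (GRCh38.p14, reference alleles, which need not be those of JJN3). Capitals mark enhancer A of HLA-B, an element that NF-κB binds, and the stretch of HLA-C aligned to it.
HLA-B (chr6:31357130-31357429, minus strand): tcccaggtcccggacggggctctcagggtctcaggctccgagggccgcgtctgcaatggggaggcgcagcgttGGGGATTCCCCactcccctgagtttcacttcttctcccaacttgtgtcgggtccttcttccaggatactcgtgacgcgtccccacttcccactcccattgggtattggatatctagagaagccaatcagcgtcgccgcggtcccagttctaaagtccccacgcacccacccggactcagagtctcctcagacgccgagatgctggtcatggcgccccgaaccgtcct
HLA-C (chr6:31272043-31272342, minus strand): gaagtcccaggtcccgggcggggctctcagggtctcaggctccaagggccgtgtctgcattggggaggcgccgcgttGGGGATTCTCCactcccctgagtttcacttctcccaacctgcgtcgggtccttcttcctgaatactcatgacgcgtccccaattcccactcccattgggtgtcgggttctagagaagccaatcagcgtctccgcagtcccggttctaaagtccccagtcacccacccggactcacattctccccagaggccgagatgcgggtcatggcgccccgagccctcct
The windows were identical at 269 of 304 alignment columns (88.5%). Enhancer A, searched on both strands as the letters in capitals in HLA-B, starts 177 bases before the HLA-B start, and 0.031% of 35116 promoter windows of this length hold it. Because the letters searched are the HLA-B form, the match in HLA-B shows nothing further, and the share counts this exact word only. The HLA-C stretch, 173 bases before its start, differs by 1 substitution, C9T, counted from 1 at the 5′ end of the element in HLA-B. A part of this substitution in the different results of HLA-B and HLA-C was not tested. The word CCAAT, the core of the NF-Y site, was present on either strand in both windows and in 34.6% of all windows. Of the members, 7 had a window in the table, HLA-E and NLRC5 being the others.

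B2M (ENSG00000166710.20, chromosome 15, 44711487 to 44718877, plus strand) encodes β2-microglobulin, the light chain that all class I heavy chains need to reach the surface. It was at 972 and 928 CPM in the shWNK1 libraries, against 806 and 864 CPM in the NS libraries. The groups were separate, but by little more than the distance between the NS libraries. B2M was 1.14-fold higher (log2 0.19, SE 0.057, edgeR adjusted p = 0.0087). It was not called without shWNK1 replicate 1 (edgeR adjusted p = 0.236) or without shWNK1 replicate 2 (0.0907). Relative to it, the heavy chain sum did not separate the groups, with per-kilobase ratios of 3.15 and 3.31 in shWNK1 cells, against 3.16 and 3.34 in NS cells. The merged exons of B2M, at 6079 bases, lower its per-kilobase value, so the ratios compare the groups and do not give a proportion of molecules. B2M lies outside the MHC and shares no exon base with another annotated gene, so its count does not carry the uncertainty of the HLA genes.

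TAP1 and TAP2 encode the subunits of one transporter. TAP2 fell and TAP1 was not called, and the difference between their changes was not tested. TAP2 (ENSG00000204267.16, chromosome 6, 32821833 to 32838770, minus strand) was at 99.2 and 95.6 CPM in the shWNK1 libraries, against 154 and 139 CPM in the NS libraries. All shWNK1 values were well below the NS values. TAP2 was 1.503-fold lower (log2 -0.59, SE 0.070, edgeR adjusted p = 3.3e-08). TAP1 (ENSG00000168394.11, chromosome 6, 32845209 to 32853978, minus strand) was at 199 and 203 CPM in shWNK1, against 204 and 207 CPM in NS libraries. Its fold change was 0.979 with a 95% interval of 0.899 to 1.07 (log2 -0.030, edgeR adjusted p = 0.736), which excludes a fall of the size seen for TAP2. TAP2 to TAP1, per kilobase, was 0.375 and 0.355 in shWNK1, against 0.569 and 0.506 in NS libraries, with no overlap. An annotated gene on the same strand shares 32.2% of the exon bases of TAP2 and had 1 count in each shWNK1 library, against 0 in each NS library. Read pairs that lie in both genes are left uncounted under the recorded settings, so the level of TAP2 is a lower estimate.

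The immunoproteasome genes PSMB8 and PSMB9 lie beside the transporter genes, PSMB8 between TAP2 and TAP1 and PSMB9 across TAP1 on the opposite strand, and both fell. PSMB8, which encodes the chymotrypsin-like subunit, was at 93.1 and 91.6 CPM in shWNK1, against 111 and 118 CPM in NS libraries (log2 -0.31, SE 0.071, edgeR adjusted p = 6.7e-04). PSMB9, the counterpart of the constitutive subunit gene PSMB6, was at 62.0 and 60.0 CPM in shWNK1, against 78.8 and 85.2 CPM in NS libraries (log2 -0.43, SE 0.080, edgeR adjusted p = 5.7e-05). PSMB8-AS1, on the opposite strand, shares 12.01% of the exon bases of TAP1 and 17.3% of those of PSMB8. It had 152 and 162 counts in shWNK1 cells, against 103 and 98 counts in NS cells (edgeR adjusted p = 0.0555), and strand was not used in counting. Between HLA-F and TAPBP on chromosome 6 (29722775 to 33314387), 26 of 121 tested genes rose (21.5%) and 21 fell (17.4%), close to the shares over all genes.

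ERAP1 (ENSG00000164307.13, chromosome 5, 96760810 to 96808100, minus strand) encodes the ER aminopeptidase that shortens peptides to the length class I chains hold. It was at 60.3 and 60.2 CPM in the shWNK1 libraries, against 102 and 95.4 CPM in the NS libraries. The groups lay farther apart than the replicates of either group. ERAP1 fell the most of the 9 genes, by 1.64-fold (log2 -0.71, SE 0.077, edgeR adjusted p = 5.3e-09). Its homologues ERAP2 and LNPEP, which lie near it on the chromosome, were not called. ERAP2, which trims together with ERAP1, was at 12.4 and 11.5 CPM in shWNK1, against 13.6 and 11.2 CPM in NS libraries (log2 -0.059, 95% interval -0.39 to 0.27, edgeR adjusted p = 0.812). LNPEP, a related endosomal aminopeptidase, was at 83.2 and 82.0 CPM in shWNK1, against 101 and 79.7 CPM in NS libraries (log2 -0.13, edgeR adjusted p = 0.262; 0.0012 without NS replicate 2). ERAP1 to ERAP2, per kilobase, was 4.25 and 4.60 in shWNK1, against 6.56 and 7.44 in NS libraries. Other genes share 10.2% of the exon bases of ERAP1.

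The promoter windows of B2M, TAP1, TAP2 and ERAP1, each of which holds an interferon-response core, are shown. Capitals mark the core, which is GAAA, any 2 bases and GAAA and is bound by interferon-regulatory factors, and in B2M and TAP1 also an NF-κB word, both searched on either strand.
B2M (chr15:44711267-44711566, plus strand): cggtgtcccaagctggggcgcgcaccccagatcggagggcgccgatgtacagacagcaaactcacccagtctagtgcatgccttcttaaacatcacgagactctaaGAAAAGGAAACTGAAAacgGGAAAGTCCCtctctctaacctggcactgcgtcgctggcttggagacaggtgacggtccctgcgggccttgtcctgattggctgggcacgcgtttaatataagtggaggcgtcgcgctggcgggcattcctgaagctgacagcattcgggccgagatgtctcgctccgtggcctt
TAP1 (chr6:32853655-32853954, minus strand): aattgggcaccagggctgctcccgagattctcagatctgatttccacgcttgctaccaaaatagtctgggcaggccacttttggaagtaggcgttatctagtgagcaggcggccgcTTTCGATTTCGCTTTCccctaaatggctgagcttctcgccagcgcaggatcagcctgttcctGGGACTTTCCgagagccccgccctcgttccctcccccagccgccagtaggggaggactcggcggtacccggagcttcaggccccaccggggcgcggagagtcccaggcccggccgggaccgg
TAP2 (chr6:32838690-32838989, minus strand): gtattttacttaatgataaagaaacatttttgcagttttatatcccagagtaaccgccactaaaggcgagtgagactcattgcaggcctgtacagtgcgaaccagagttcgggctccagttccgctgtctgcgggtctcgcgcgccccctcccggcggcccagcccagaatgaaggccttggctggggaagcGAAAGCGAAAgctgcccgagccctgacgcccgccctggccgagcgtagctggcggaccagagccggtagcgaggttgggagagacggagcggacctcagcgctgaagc
ERAP1 (chr5:96807896-96808195, minus strand): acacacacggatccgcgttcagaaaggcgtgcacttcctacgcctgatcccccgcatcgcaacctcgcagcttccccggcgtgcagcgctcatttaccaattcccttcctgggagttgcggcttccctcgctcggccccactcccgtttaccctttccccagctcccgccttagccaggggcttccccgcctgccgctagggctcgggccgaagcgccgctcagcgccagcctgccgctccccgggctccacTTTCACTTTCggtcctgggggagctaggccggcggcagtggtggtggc
The interferon-response core was present in 5 of the 7 members searched, these 4 and HLA-F, and in 3.57% of all windows. Only exact matches to these letters were counted. The lack of a match in HLA-B and HLA-C therefore does not show that they lack such an element. B2M and TAP1 hold 2 overlapping matches each, the first 144 and 134 bases before the start. The match in TAP2 begins 58 bases before the start and that in ERAP1 2 bases past it. B2M and TAP1 also hold the NF-κB word, 125 and 72 bases before the start, which 0.191% of all windows do. Because the letters searched are the TAP1 form of that site, the match in TAP1 shows nothing further. Of these genes B2M rose, TAP1 was not called, and TAP2 and ERAP1 fell. A part of the core in these results was not tested, and HLA-E, which rose, had no window. The interferon-γ word TTCNNNGAA was in none of the 7 windows and in 7.66% of all windows. A match is a match of letters and was not tested for binding.

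A 3′ UTR word is given as a description only. The 6-base word AGTATC, chosen with earlier results of these data known, occurred in a 3′ UTR (GENCODE release 29, any coding transcript) of 35.5% of genes that fell (995 of 2806), 19.9% of genes that rose (495 of 2490) and 23.1% of genes not called (1521 of 6593). It occurred in 2 of 3 TAP2 transcripts and 2 of 3 ERAP1 transcripts with a 3′ UTR, in 1 of 4 B2M transcripts, and in no transcript searched of the other 6 members. It was thus present in both members that fell and in B2M, which rose. Because the word was chosen with earlier results known, the difference between these shares is not an independent result. Lengths of 3′ UTRs were not compared. The first match in the longest 3′ UTR with the word is shown for each gene, with the word in capitals.
TAP2: tcgcttacctgcAGTATCtttcccacccag
ERAP1: ttgagttataaaAGTATCttattgctattt
B2M: agagggagcaaaAGTATCtgaaggatttaa
The sequence of the WNK1 hairpin was not used here, and a part of this word in the falls of TAP2 and ERAP1 was not tested.

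NLRC5 (ENSG00000140853.15, chromosome 16, 56989485 to 57083531, plus strand), the transactivator of class I genes, was at 45.96 and 41.3 CPM in the shWNK1 libraries, against 45.3 and 45.7 CPM in the NS libraries. The NS values lay between the shWNK1 values. Its fold change was 0.959 with a 95% interval of 0.8397 to 1.09 (log2 -0.061, SE 0.094, edgeR adjusted p = 0.653). CIITA, its class II counterpart, was 2.79-fold higher, at 60.4 and 61.6 CPM in shWNK1, against 23.9 and 19.9 CPM in NS libraries (log2 1.48, SE 0.10, edgeR adjusted p = 2.7e-13). The class II genes HLA-DRA (1.70-fold) and CD74 (1.54-fold) rose as well.

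The RFX and NF-Y subunits that work with NLRC5 at class I promoters included rises and a fall. RFX5, a subunit of the RFX complex, was at 168.5 and 176.5 CPM in shWNK1, against 129.6 and 125 CPM in NS libraries (log2 0.44, SE 0.065, edgeR adjusted p = 1.5e-06). NFYA, a subunit of NF-Y, rose by 0.74 on the log2 scale. Among the other subunits, which were named after their values were seen, NFYC (log2 0.26) and RFXAP (0.54) rose, NFYB fell (-0.65) and RFXANK was not called (0.076; edgeR adjusted p = 0.61). IRF1, an activator of class I genes, was at 33.8 and 37.5 CPM in shWNK1, against 18.2 and 17.9 CPM in NS libraries, and rose 1.98-fold (log2 0.99, SE 0.12, edgeR adjusted p = 3.2e-08). An antisense gene shares 22.1% of the exon bases of IRF1. Falls were seen for NFKB1 (2.37-fold lower), which encodes the p50 precursor, the acetyltransferase gene KAT2B (2.17-fold lower), the NF-κB subunit gene RELA (1.28-fold lower) and IRF2 (1.37-fold lower), which binds the same elements as IRF1. Of 19 regulators tested 6 rose, 7 fell and 6 were not called, with a median log2 fold change of 0.051. Over all genes tested 18.5% rose and 20.2% fell.

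The loading complex genes CALR, PDIA3 and TAPBP fell. Calreticulin (CALR) was at 667 and 678 CPM in shWNK1, against 999.9 and 1075 CPM in NS libraries, 1.54-fold lower (log2 -0.63, SE 0.057, edgeR adjusted p = 1.2e-10). The disulfide isomerase PDIA3 fell 1.46-fold and tapasin (TAPBP), which bridges TAP and the heavy chain, fell 1.35-fold, to 193 ± 0.938 CPM in shWNK1, against 259 ± 6.18 CPM in NS cells. Calnexin (CANX), which folds free heavy chains, was at 1676 ± 11.4 CPM in shWNK1, against 1827 ± 97.0 CPM in NS cells (log2 -0.12, edgeR adjusted p = 0.0781; 0.0367 with limma-voom and 8.6e-04 without NS replicate 2). With ER quality control genes, the list held 11 genes, of which 6 fell (20.2% of all genes tested did), 0 rose and 5 were not called, with a median of -0.28. The other 3 falls were ER quality control genes, with HSPA5, the chaperone BiP, lowest at -0.93.

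All 3 immunoproteasome catalytic genes fell, PSMB10, the trypsin-like subunit, by 0.37 on the log2 scale (edgeR adjusted p = 0.0089), a call lost if shWNK1 replicate 1 (0.261) or NS replicate 2 (0.159) was left out. With the activator subunit PSME2 (-0.38) and the assembly factor POMP (-0.36), 5 of 6 genes fell, against 20.2% of all genes tested, and 0 rose. The activator subunit PSME1, named after its value was seen, was not called (0.019; edgeR adjusted p = 0.856). The constitutive counterparts were PSMB5 (-1.06), PSMB6 (-0.30; edgeR adjusted p = 0.0655 without shWNK1 replicate 1) and PSMB7 (-0.13; edgeR adjusted p = 0.112, and 0.0044 without NS replicate 1), of which PSMB5 and PSMB6 fell. PSMB8 to PSMB5, per kilobase, was 0.755 and 0.770 in shWNK1, against 0.486 and 0.429 in NS libraries. PSMB9 to PSMB6 went the other way, with 0.219 and 0.204 in shWNK1, against 0.239 and 0.224 in NS libraries, as did PSMB10 to PSMB7 with 0.223 and 0.265, against 0.272 and 0.301.

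Among 9 cytosolic peptidases 2 rose, 2 fell and 5 were not called, shares near those over all genes (18.5% and 20.2%). The puromycin-sensitive aminopeptidase NPEPPS rose 1.67-fold (log2 0.74), and tripeptidyl peptidase TPP2 rose by 0.23 (edgeR adjusted p = 0.0049), a call lost if either shWNK1 replicate 1 (0.111) or 2 (0.0697) was left out. Rises numbered 1 without either shWNK1 library and 4 without NS replicate 1. Bleomycin hydrolase BLMH fell 1.62-fold (-0.70) and leucine aminopeptidase LAP3 fell 1.32-fold (-0.40).

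Of 12 tested receptor and signalling genes 4 rose, 2 fell and 6 were not called, beside 18.5% and 20.2% over all genes tested. The feedback inhibitors SOCS3 (log2 1.77) and SOCS1 (1.11) rose, and the interferon-γ receptor chain IFNGR1 fell 2.00-fold, to 10.7 ± 2.06 CPM in shWNK1, against 21.3 ± 2.21 CPM in NS cells. The other fall, of the type I receptor chain IFNAR1 (-0.20; edgeR adjusted p = 0.028), was not called with DESeq2 (0.0778), with upper-quartile factors (0.0777), or when shWNK1 replicate 1 (0.234) or 2 (0.147) or NS replicate 1 (0.262) was left out. Of 31 interferon-stimulated genes 16 were high enough to test, of which 3 rose (SAMD9L, SAMD9 and PARP9, by 0.86 to 1.00), 3 fell (GBP1, BST2 and PARP14, by 0.29 to 0.96) and 10 were not called, again near the 18.5% and 20.2% over all genes. The call of PARP14 ended without shWNK1 replicate 1 (edgeR adjusted p = 0.0642) or shWNK1 replicate 2 (0.11). In the same list 8 genes had no count in any library, where the limit that a count of 0 allows, 3 counts, is 0.149 to 0.177 CPM.

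Genes that act on class I after assembly, or that resemble it, were the last group. Of 12 tested genes of surface turnover and degradation 5 rose, 1 fell and 6 were not called, where 18.5% of all genes tested rose and 20.2% fell. The ubiquitin ligase WWP2 (log2 0.39), the autophagy gene IRGQ (0.46) and the cargo receptor NBR1 (0.28; edgeR adjusted p = 0.0641 without shWNK1 replicate 1) rose, and the ligase TRIM25 fell 1.96-fold (-0.97). Rises numbered 3 without either shWNK1 library, and falls 3 without NS replicate 2. MR1, which presents vitamin B metabolites on B2M, was at 38.1 and 41.7 CPM in shWNK1, against 24.9 and 22.7 CPM in NS libraries (log2 0.74, SE 0.11, edgeR adjusted p = 1.4e-06). MICB, a stress ligand of the NKG2D receptor that needs no B2M, was at 46.6 and 43.7 CPM in shWNK1, against 67.4 and 66.9 CPM in NS libraries (log2 -0.57, SE 0.086, edgeR adjusted p = 2.0e-06). Of 14 class I-like genes and NK ligands 5 were high enough to test.

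**Figure D4:**
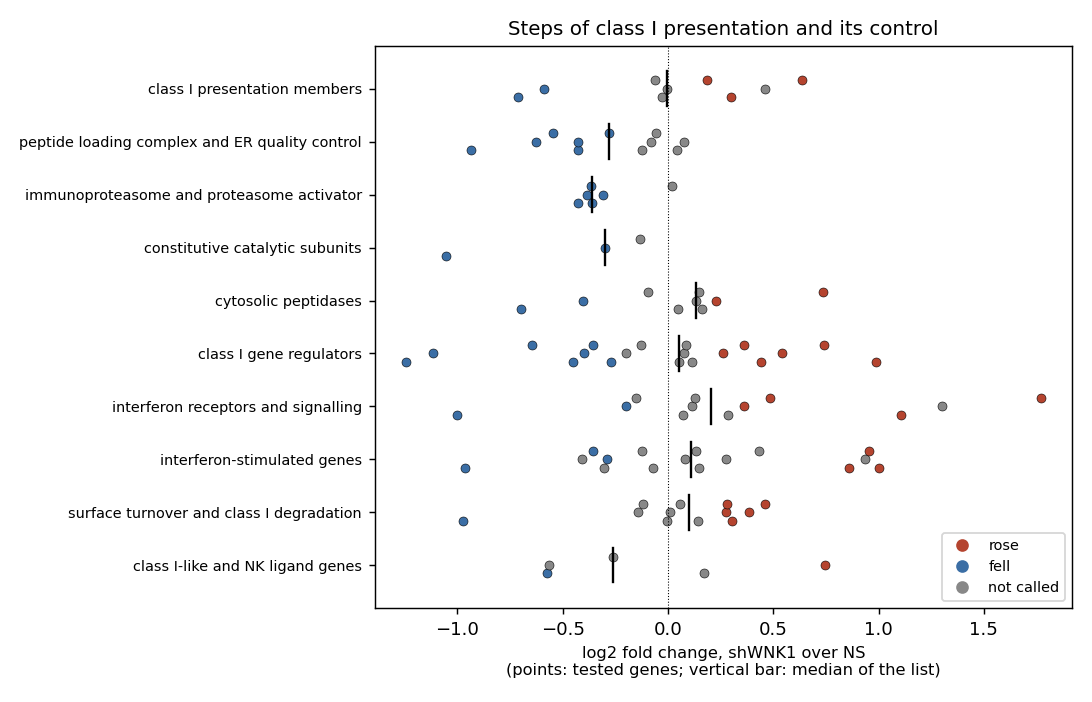
Log2 fold changes, shWNK1 over NS, of the tested genes of each list, coloured by call, with the median of each list as a vertical bar. Genes of the loading complex with ER quality control and of the immunoproteasome lay mostly below 0, with medians of -0.28 and -0.36, and the regulators were spread on both sides, from -1.24 to 0.99.

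The genes whose 4 library values were most like the members' mean deviation were SYNGR2, PGAP6, TFIP11, RHEB and MED4, with Euclidean distances of 0.014 to 0.020 on the log2 scale. Because rises and falls of the members cancel, that mean was nearly flat, and 545 of 10355 genes searched lay within 0.1 of it.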

How the data were processed

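The authors' deposited table holds raw counts of read pairs per gene in 4 RNA-seq libraries, counted by featureCounts (v2.0.0) against GENCODE 34 without regard to strand and with a mapping quality of at least 20, per the file headers. Trimmomatic and STAR were used with hg38, per the submitters' processing notes, with versions not given in the sources used here. From the 60682 genes analysed, after leaving out 1 gene broken over 3 lines and 45 pseudoautosomal Y copies, 14864 passed filterByExpr. They were tested with edgeR 4.0.16 (R 4.3.3) with TMM factors, glmQLFit (robust) and glmQLFTest, two-sided, with Benjamini-Hochberg adjustment. Each gene has 2 residual degrees of freedom of its own. The fit adds degrees of freedom borrowed from the other genes, and p-values and intervals rest largely on these. The fit was tested on simulated data. Standard errors follow from the F statistic. DESeq2 1.42.0, limma 3.58.1 and other scalings and filters were alternatives, and promoters came from RefSeq.

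The members and lists were chosen with earlier results of these data known. Named genes were the members, a fixed panel, and up to 3 called genes per direction in each list, by smallest p, plus the 5 most similar in pattern.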

Additional observations from a re-analysis of the deposited data

How the results depend on the processing

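With 12 alternatives each, HLA-E, HLA-B, TAP2 and ERAP1 kept their direction and their call. Rises among the members numbered 2 to 4 when 1 library was left out, and falls numbered 2 under every alternative tried. Over the other genes of the lists there were 20 rises and 29 falls, with 14 to 25 rises and 24 to 31 falls when 1 library was left out. Directions turned for genes that were not called. With upper-quartile factors, which moved the median of all genes to 0.044, the log2 fold change of HLA-C was 0.035 and that of TAP1 0.0090. With 1 library left out, HLA-C ranged from -0.105 to 0.106, NLRC5 from -0.134 to 0.0098, ERAP2 from -0.190 to 0.088 and LNPEP from -0.283 to 0.051. With upper-quartile factors rises numbered 3154 and falls 2672 over all genes, against 2755 and 3005, and leaving out shWNK1 replicate 1 or 2 gave 1663 or 1632 rises and 1964 or 2034 falls. The log2 ratio of the heavy chain sum was 0.19, and 0.40 without HLA-C, whose level did not separate the groups. With the replicate number as a block there were 3 rises and 2 falls among the members, and the IFNAR1 call ended (edgeR adjusted p = 0.0536). The count columns of replicate 1 share the letter A in both groups and those of replicate 2 the letter B, and the labels do not say what the letters mean. The differences between replicates 1 and 2 were uncorrelated between groups (r = 0.002 over 9165 genes). With 2 libraries per group this value cannot exclude that the letters mark paired libraries. The main fit did not use the replicate numbers as pairs. HLA-F and HLA-G, at 5.05 and 0.716 CPM in shWNK1 cells, are limited by depth, and HLA-F also by the exon bases it shares with opposite-strand genes.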
